A study of Sus scrofa with 6 samples.

Results

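Glycolysis enzymes were followed in the abdominal aorta of Wuzhishan miniature pigs through 10 genes: the hexokinases HK1, HK2 and HK3, the phosphofructokinases PFKP and PFKM, the regulator PFKFB3, the aldolase ALDOA, the pyruvate kinase PKM and the lactate dehydrogenases LDHA and LDHB. The members were chosen by name from 30477 genes in the table. A row was found by gene name for 8 of them, and ALDOA and PKM were found by gene ID and the description that the table gives for it. All 10 passed the filter on low values and were among the 15384 genes tested. The samples were whole abdominal aorta of 3 male pigs on a normal chow diet (NC group) and 3 male pigs on a diet rich in fat, cholesterol and fructose (HFCF group), each for 6 months, with 1 library per pig. The labels give the pigs an age of 3 to 4 months, whereas the methods give an older age at purchase. No genotype is given beyond the Wuzhishan breed, no drug or allele was used, and the diet that the controls ate was regular chow.

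Glycolysis splits glucose into pyruvate and yields ATP without oxygen. Hexokinases trap glucose as glucose 6-phosphate, 6-phosphofructokinase commits it to the pathway, aldolase splits the sugar, pyruvate kinase makes pyruvate and ATP, and lactate dehydrogenase interconverts pyruvate and lactate. Each step can be served by several isoenzymes that differ in tissue and regulation. Contractile smooth muscle of the artery wall is known for producing lactate even when oxygen is present, and activated macrophages are known for a high glycolytic rate.

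Expression was measured as FPKM, which is read fragments scaled by transcript length and library size, so that levels can be compared between genes per length. The FPKM of a whole library summed to 272207 to 287141 in the NC group and 330222 to 338690 in the HFCF group, and the relative depth estimated from the smallest steps in the values was 1 to 1.37 with NC pig 1 at 1. Markers of contractile smooth muscle were at a summed FPKM of 7707 to 21429. Those of heart muscle, of which 2 of 5 had a row, stayed at or under 2.46 in sum. These markers show contractile smooth muscle, as the tissue label implies, but they do not single out the aorta. HFCF pig 1 stood apart: its red blood cell markers summed to 2898 FPKM, against 95.6 or less in the other HFCF pigs and 179 or less in the NC group, and its neutrophil and skeletal muscle markers were the highest of all libraries. The log2 fold change of each member is therefore also given without this pig. Fold changes below are limma differences of log2(FPKM + 0.1), HFCF minus NC, with their standard error (SE) over 3 pigs against 3, and adjusted p-values are Benjamini-Hochberg values over all 15384 genes. The limma p-values test the difference between diets against the spread between these pigs, moderated over all tested genes. The sources name no other division of the pigs. The paper fed more pigs per diet than the 3 that have libraries.

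The family did not move in 1 direction. Of the 10 members, HK2, HK3 and LDHA rose and PFKP fell at an adjusted p under 0.05, while HK1, PFKM, PFKFB3, ALDOA, PKM and LDHB did not pass the limma test. Of all tested genes 28.9% passed, 22.8% as higher and 6.16% as lower in the HFCF group. That split depended on the scaling. In the main fit, which used FPKM as deposited, 3505 genes were higher and 948 lower. The numbers were 2031 and 1966 with median-ratio scaling, 1766 and 1759 after quantile normalization and 2229 and 1527 after rescaling to TPM. The median log2 fold change of the members was 0.05 and that of all tested genes was 0.32, so the median member lay -0.27 from the median gene. Every HFCF pig was above every NC pig for HK2, HK3, ALDOA and LDHA, and below for PFKP and PFKM. Separation of this kind was seen in 36.1% of tested genes upwards and 12.1% downwards. At 40% the share of members called was near that of all genes, so the count is not read as a result about the members. With any 1 of NC pig 1 or NC pig 2 left out, 0 members passed the limma test, with 5 and 4 at an unadjusted p under 0.05 against 6 in all pigs. Without NC pig 3 the count was 2, without HFCF pig 1 it was 1 and without HFCF pig 2 it was 2.

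**Figure D1:**
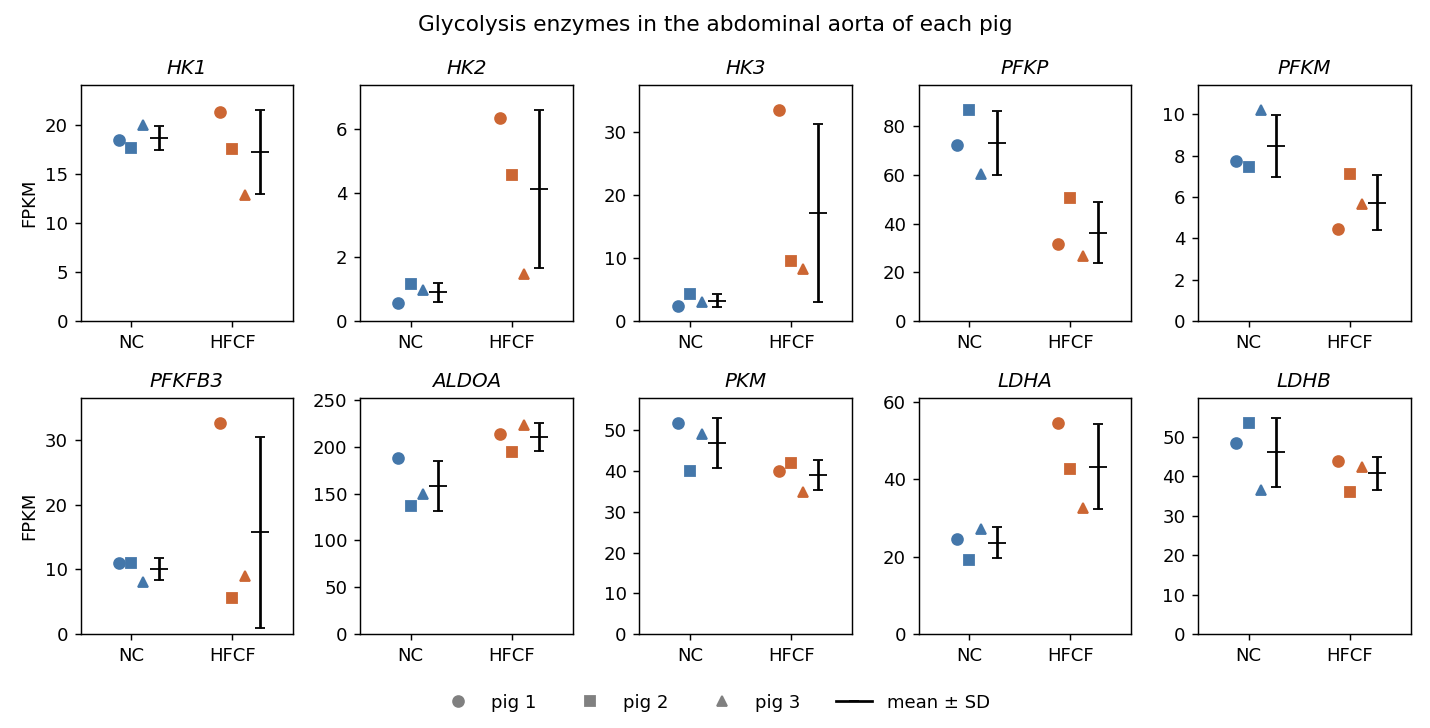
FPKM of the 10 glycolysis enzymes in the abdominal aorta of each of 3 NC and 3 HFCF pigs, on linear axes that start at 0 and differ between panels, with the group mean ± SD in black. HK2, HK3 and LDHA lie higher and PFKP lower in every HFCF pig, and HFCF pig 1 stands above the other HFCF pigs in HK3 (33.5 FPKM) and PFKFB3 (32.6 FPKM).

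The order of the members by level was compared within each group, with the row named LDHB standing for that gene. A second, unnamed LDHB row described below was higher than ALDOA in the mean of the NC group. In the HFCF group it was above LDHA in every pig. The order is therefore only that of the rows taken for the members. In the NC group ALDOA had the highest mean, 158 ± 26.7 FPKM (SD, n = 3), followed by PFKP at 73.0 ± 13.1, PKM at 47.0 ± 6.11, LDHB at 46.1 ± 8.71, LDHA at 23.6 ± 3.99, HK1 at 18.7 ± 1.20, PFKFB3 at 10.03 ± 1.70, PFKM at 8.47 ± 1.51, HK3 at 3.26 ± 1.03 and HK2 at 0.896 ± 0.293. Neighbours whose ranges overlapped in that order were PKM and LDHB, LDHA and HK1, and PFKFB3 and PFKM. In the HFCF group ALDOA was again first, at 211 ± 14.9 FPKM, and LDHA moved up to the second place at 43.3 ± 10.99. LDHB, PKM and PFKP came next at 40.8 ± 4.18, 39.0 ± 3.68 and 36.2 ± 12.5. The ranges of neighbours among LDHA, LDHB, PKM and PFKP overlapped, while those of PFKP and HK1 did not. HK1 and HK3 had nearly the same HFCF mean, 17.3 ± 4.26 and 17.1 ± 14.2 FPKM, but HFCF pig 1 set most of the SD of HK3.

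Hexokinase 1 (HK1), the housekeeping isoenzyme that binds mitochondria, was the main hexokinase of the NC aorta. Its FPKM was 18.4, 17.7 and 20.02 in NC pigs 1 to 3 and 21.4, 17.6 and 12.9 in HFCF pigs 1 to 3. The groups overlapped, with both the highest and the lowest pig in the HFCF group. The log2 fold change was -0.14 (SE 0.20, limma adjusted p = 0.626), with a 95% confidence interval of -0.62 to 0.34, and it was -0.31 without HFCF pig 1 and turned to 0.05 without HFCF pig 3.

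Hexokinase 2 (HK2), the insulin-responsive isoenzyme of muscle and fat that is also induced in activated and dividing cells, was the lowest of the 10 in the NC group. It measured 0.574, 1.14 and 0.971 FPKM in NC pigs and 6.33, 4.57 and 1.48 in HFCF pigs. The groups did not overlap, but HFCF pig 3 was close to the NC pigs and the highest HFCF pig was 4.29 times the lowest. HK2 rose by 1.91 on the log2 scale (SE 0.54, limma adjusted p = 0.0372). Without HFCF pig 1 the log2 fold change was 1.49. The adjusted p was 0.101 without HFCF pig 1, 0.108 without HFCF pig 2, and 0.127, 0.0712 and 0.0790 without NC pig 1, 2 or 3. It was 0.0646, 0.104 and 0.0577 with median-ratio, quantile and TPM scaling. The call did not hold in any of these fits, and was lost under 10 of the 15 alternatives. Over all 15 alternatives the adjusted p lay between 0.00979 and 0.127, and the log2 fold change between 1.31 and 2.51.

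Hexokinase 3 (HK3), the isoenzyme found mainly in myeloid cells, had a log2 fold change close to that of HK2, and their order turned when HFCF pig 1 or 3 was left out. It measured 2.36, 4.38 and 3.03 FPKM in NC pigs and 33.5, 9.61 and 8.30 in HFCF pigs. No HFCF pig came near the NC range, and HFCF pig 1 was more than 3 times as high as either of the other HFCF pigs. HK3 rose by 2.10 on the log2 scale (SE 0.53, limma adjusted p = 0.0260). Without HFCF pig 1 the rise was 1.47 with an adjusted p of 0.0220, so it did not rest on that pig. The adjusted p was 0.0986, 0.0503 and 0.0695 without NC pig 1, 2 or 3, and 0.0558 after quantile normalization, with a range of 0.0220 to 0.0986 over the 15 alternatives.

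The isoform make-up of the hexokinases was compared as the share of their summed FPKM in each pig. HK1 held 86.3%, 76.2% and 83.3% in NC pigs and 35.0%, 55.3% and 56.8% in HFCF pigs. HK3 held 11.04%, 18.9% and 12.6% in NC pigs and 54.7%, 30.3% and 36.6% in HFCF pigs, so that in HFCF pig 1 HK3 passed HK1. HK2 went from 2.68%, 4.94% and 4.04% to 10.3%, 14.4% and 6.52%. No share overlapped between the groups, although the summed hexokinase FPKM did, at 21.4, 23.2 and 24.03 in NC pigs and 61.2, 31.7 and 22.7 in HFCF pigs. HFCF pig 3 thus had a hexokinase sum inside the NC range with a different make-up.

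Ratios within a library do not depend on how the library was scaled, and 5 were tested with two-sided exact permutation tests, for which 3 pigs against 3 cannot give a p below 0.1. HK3 stood at 0.128, 0.248 and 0.151 of HK1 in NC pigs and at 1.56, 0.547 and 0.645 of HK1 in HFCF pigs, a difference of 2.28 on the log2 scale (exact permutation p = 0.1, adjusted p = 0.167). HK2 stood at 0.0311, 0.0648 and 0.0485 of HK1 in NC pigs and at 0.296, 0.261 and 0.115 in HFCF pigs, a log2 difference of 2.17 (exact permutation p = 0.1, adjusted p = 0.167). In both, every HFCF pig was above every NC pig. HK3 was 4.11, 3.82 and 3.12 times HK2 in NC pigs and 5.29, 2.10 and 5.62 times in HFCF pigs, with overlapping groups and a log2 difference of 0.12 (exact permutation p = 1, adjusted p = 1), which turned to -0.09 without HFCF pig 1 and -0.14 without HFCF pig 3.

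**Figure D2:**
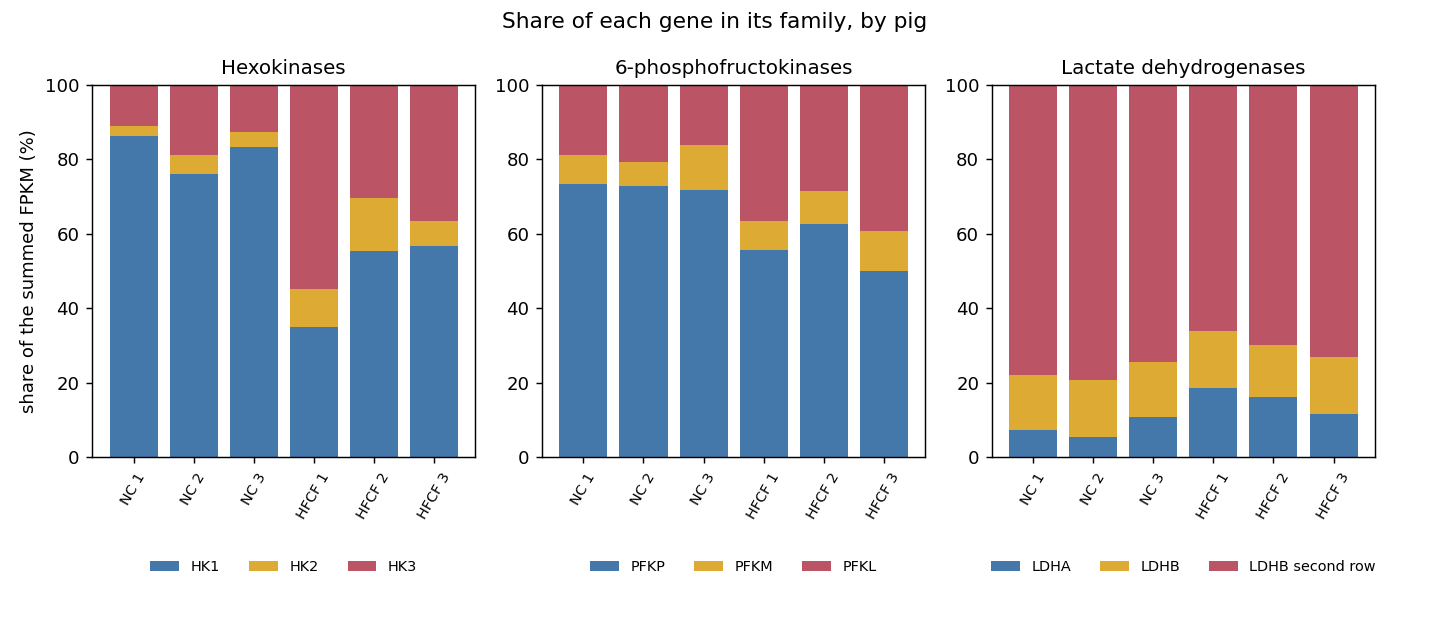
Share in percent of each gene in the summed FPKM of the hexokinases (HK1, HK2, HK3), the 6-phosphofructokinases (PFKP, PFKM, PFKL) and the lactate dehydrogenases (LDHA and both LDHB rows), with 1 stacked bar for each of 3 NC and 3 HFCF pigs. HK1 holds 76.2% to 86.3% of hexokinase FPKM in NC pigs and 35.0% to 56.8% in HFCF pigs.

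Markers of several cell types moved with these genes. All 9 macrophage markers found in the table were higher in the HFCF group, none was listed at 0 in all pigs, and their summed FPKM was 74.7 to 79.8 in NC pigs and 461 to 1184 in HFCF pigs, with HFCF pig 1 the highest. Neutrophil markers summed to 0.986 to 1.51 FPKM in NC pigs and 6.07 to 83.6 in HFCF pigs, with 2 of 4 tested markers higher. MPO, a marker of this list too low to be tested, was listed at 0 in every pig except HFCF pig 1 at 0.0587. Markers of T cells summed to 0.420 to 0.687 FPKM in NC pigs and 1.70 to 10.9 in HFCF pigs, with 2 of 5 called higher and HFCF pig 1 on top. Those of B cells summed to 6.74 to 11.2 and 35.6 to 48.6, with 1 of 5 called higher. Among all tested genes 22.8% were called higher, so the B cell count is not read as a result. Per 100 FPKM of the macrophage markers HK3 was 3.02, 5.48 and 4.06 in NC pigs and 2.83, 2.08 and 1.74 in HFCF pigs. Relative to these markers it was thus lower in every HFCF pig, although HFCF pig 1 and NC pig 1 lay close together. HK2 on the same basis was 0.734, 1.43 and 1.30 in NC pigs and 0.535, 0.992 and 0.309 in HFCF pigs, with overlapping groups. These ratios were formed after the values were seen and are given as a description. In bulk tissue fewer cells of a type and less RNA per cell cannot be told apart, and the part of the marker changes in the results was not tested.

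**Figure D3:**
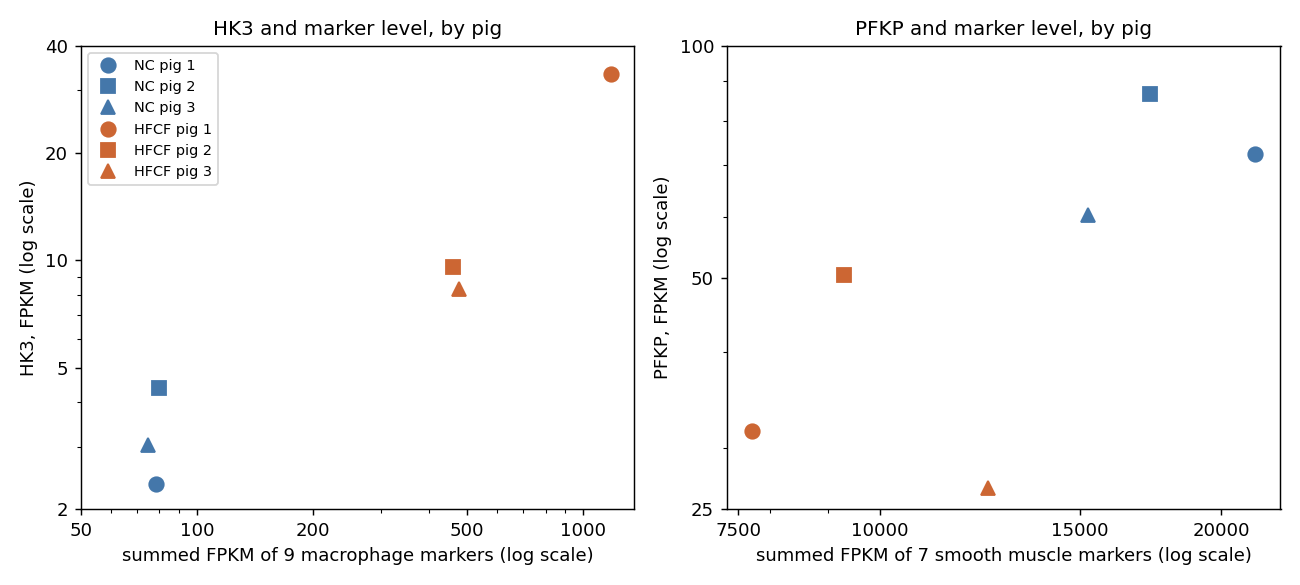
HK3 against the summed FPKM of 9 macrophage markers (left) and PFKP against that of 7 contractile smooth muscle markers (right), with 1 point per pig and log axes. HFCF pig 1 is highest in both HK3 (33.5 FPKM) and macrophage markers (1184 FPKM), and the HFCF pigs lie lower than the NC pigs in both PFKP and smooth muscle markers.

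Genes whose pattern over the 6 pigs was most like that of a hexokinase were searched among 9593 genes by the root mean square (RMS) difference of centred log2 values. For HK3 these were FMNL1, a formin of blood cells, at an RMS of 0.174, TLL1, an extracellular metalloprotease, at 0.202, and GPR137B, a lysosomal membrane protein, at 0.211. FMNL1 measured 1.78, 3.16 and 1.89 FPKM in NC pigs and 18.6, 7.53 and 6.16 in HFCF pigs, again with HFCF pig 1 on top. For HK2 they were MDFIC at 0.228, DOCK8, a guanine nucleotide exchange factor of leukocytes, at 0.235, and GPD2, the mitochondrial glycerol 3-phosphate dehydrogenase, at 0.269. For HK1 they included PHKA2, a subunit of liver phosphorylase kinase, at 0.0660, and HSPA5, the chaperone of the endoplasmic reticulum, at 0.0726.

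At the 6-phosphofructokinase step the platelet-type isoenzyme PFKP was the main form in the NC aorta and fell. It measured 72.4, 86.5 and 60.2 FPKM in NC pigs and 31.6, 50.4 and 26.6 in HFCF pigs. All HFCF pigs were below all NC pigs, with HFCF pig 2 nearest. PFKP fell by 1.05 on the log2 scale (SE 0.26, limma adjusted p = 0.0249). The call was kept under all 3 other scalings, with log2 values of -1.40, -1.31 and -1.16, but the adjusted p was 0.0835 and 0.0810 without NC pig 1 or 2 and 0.0715 and 0.0629 without HFCF pig 1 or 3 (log2 fold change -0.98 and -0.85), within a range of 0.0105 to 0.0835 over the alternatives.

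The muscle-type isoenzyme PFKM measured 7.76, 7.44 and 10.204 FPKM in NC pigs and 4.45, 7.12 and 5.65 in HFCF pigs. The groups did not overlap, yet HFCF pig 2 and NC pig 2 lay close together. Its log2 fold change was -0.56 (SE 0.23, limma adjusted p = 0.103). With median-ratio scaling, quantile normalization and rescaling to TPM the adjusted p was 0.0269, 0.0370 and 0.0443, with log2 fold changes of -0.92, -0.90 and -0.83, whereas without HFCF pig 1 the log2 fold change was -0.40 (adjusted p 0.220). The liver-type isoenzyme PFKL, named here after its values were seen to complete the family, measured 18.6, 24.6 and 13.5 FPKM in NC pigs and 20.9, 22.8 and 20.8 in HFCF pigs, with a log2 fold change of 0.23 (SE 0.22, limma adjusted p = 0.477).

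Within this family the share of PFKP was 73.3%, 73.0% and 71.7% in NC pigs and 55.6%, 62.7% and 50.1% in HFCF pigs. PFKL held 18.8%, 20.7% and 16.1% in NC pigs and 36.6%, 28.4% and 39.2% in HFCF pigs, again without overlap, while the share of PFKM overlapped, at 6.28% to 12.2% and 7.81% to 10.6%. The summed FPKM of the family was lower in every HFCF pig, at 56.9, 80.3 and 53.1 against 98.7, 118 and 84.0. The ratio of PFKP to PFKM was 9.33, 11.6 and 5.90 in NC pigs and 7.11, 7.08 and 4.71 in HFCF pigs, with overlapping groups and a log2 difference of -0.48 (exact permutation p = 0.3, adjusted p = 0.375).

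Markers of contractile smooth muscle were called lower in the HFCF group for 5 of 7 genes, against 6.16% of all tested genes. Their summed FPKM was 15250 to 21429 in NC pigs and 7707 to 12455 in HFCF pigs. Per 1000 FPKM of these markers PFKP was 3.38, 4.99 and 3.95 in NC pigs and 4.10, 5.41 and 2.14 in HFCF pigs, and the groups overlapped. PFKM on this basis was 0.362, 0.430 and 0.669 in NC pigs and 0.577, 0.765 and 0.454 in HFCF pigs, also with overlap. LDHA was 1.14, 1.11 and 1.77 in NC pigs and 7.07, 4.60 and 2.61 in HFCF pigs, without overlap. HK1 was 0.861, 1.02 and 1.31 in NC pigs and 2.77, 1.89 and 1.03 in HFCF pigs, with overlap. These ratios too were formed after the values were seen. The part of these markers in the fall of PFKP was not tested.

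PFKFB3, the kinase that makes fructose 2,6-bisphosphate and so activates 6-phosphofructokinase, gave the widest spread within the HFCF group. It measured 11.004, 11.013 and 8.07 FPKM in NC pigs and 32.6, 5.61 and 8.94 in HFCF pigs. HFCF pig 1 was far above every other pig, and HFCF pig 2 was below all NC pigs. The log2 fold change was 0.25 (SE 0.59, limma adjusted p = 0.780) with a 95% interval of -1.14 to 1.64, and it had the opposite sign without HFCF pig 1 (-0.48), with median-ratio scaling (-0.11) and after rescaling to TPM (-0.01). No direction can be given for it. Of the 5 other fructose 2,6-bisphosphate and fructose 1,6-bisphosphate control genes that were tested, 0 passed the limma test, and 0 had an unadjusted p under 0.05.

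Aldolase A (ALDOA), the muscle and general form of the enzyme that splits fructose 1,6-bisphosphate, had the highest FPKM of the rows taken for the members. It measured 188, 137 and 150 FPKM in NC pigs and 214, 195 and 224 in HFCF pigs. Every HFCF pig was above every NC pig, although NC pig 1 and HFCF pig 2 nearly met. The log2 fold change was 0.42 (SE 0.17, limma adjusted p = 0.0967), 0.10 above the median of all genes and 0.41 without HFCF pig 1, and it did not pass under any of the 15 alternatives, which gave adjusted p-values of 0.0729 to 0.815.

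Pyruvate kinase M (PKM), whose splice forms M1 and M2 differ in regulation, measured 51.8, 40.1 and 49.0 FPKM in NC pigs and 40.01, 42.0 and 34.9 in HFCF pigs. The groups overlapped through NC pig 2. The log2 fold change was -0.26 (SE 0.15, limma adjusted p = 0.239), and with median-ratio scaling it was -0.62 with an adjusted p of 0.0323. Without HFCF pig 1 it was -0.28. The table lists 9 transcripts for PKM but gives 1 value per gene, so M1 and M2 were not separated. Of 4 tested splicing factors that act on PKM, only SRSF3 was called, as higher, or 25% against 28.9% of all tested genes. That count is not read as a result about PKM splicing. Every HFCF pig was above every NC pig for 2 of the 4 and below for 2. Such separation was seen in 36.1% of all tested genes upwards and 12.1% downwards. SRSF3 measured 23.6, 22.2 and 18.9 FPKM in NC pigs and 56.1, 44.0 and 57.9 in HFCF pigs. Its log2 fold change was 1.28 (SE 0.16, limma adjusted p = 0.00293), which passed under all 15 alternatives.

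Lactate dehydrogenase A (LDHA), the form that favours making lactate from pyruvate, measured 24.5, 19.2 and 27.03 FPKM in NC pigs and 54.5, 42.8 and 32.5 in HFCF pigs. Every HFCF pig was above every NC pig, and HFCF pig 1 was the highest. LDHA rose by 0.86 on the log2 scale (SE 0.23, limma adjusted p = 0.0304). Its adjusted p was 0.0844 and 0.0920 without NC pig 1 or 2, 0.0681 and 0.0807 without HFCF pig 1 or 2 (log2 fold change 0.67 and 0.85), and 0.142, 0.0635 and 0.101 with median-ratio, quantile and TPM scaling, where the log2 fold change was 0.50, 0.73 and 0.60. The range over the 15 alternatives was 0.0226 to 0.142.

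Lactate dehydrogenase B (LDHB), the form that favours the use of lactate, measured 48.4, 53.5 and 36.5 FPKM in NC pigs and 44.0, 36.1 and 42.3 in HFCF pigs. The groups overlapped and the log2 fold change was -0.16 (SE 0.18, limma adjusted p = 0.528), with a 95% interval of -0.59 to 0.26 and a value of -0.22 without HFCF pig 1. A second row of the table that carries the same description but no gene symbol was more abundant, with 258, 278 and 183 FPKM in NC pigs and 193, 183 and 203 in HFCF pigs, and a log2 fold change of -0.29 (SE 0.19, limma adjusted p = 0.277). Reads of near-identical copies can be split between such rows, so the level of LDHB is uncertain.

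LDHB was 1.97, 2.78 and 1.35 times LDHA in NC pigs and 0.807, 0.843 and 1.30 times LDHA in HFCF pigs. No HFCF pig reached the NC range, but HFCF pig 3 was next to NC pig 3. The log2 difference of the ratio was -1.02 (exact permutation p = 0.1, adjusted p = 0.167), and -1.13 with both LDHB rows summed, an alternative added after the data were seen. With both rows LDHA held 7.40%, 5.49% and 10.9% of lactate dehydrogenase FPKM in NC pigs and 18.7%, 16.3% and 11.7% in HFCF pigs. Counted on the named rows alone these shares were 33.6%, 26.4% and 42.6% against 55.3%, 54.3% and 43.5%.

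The spread between HFCF pigs differed from member to member. HFCF pig 1 was the highest of its group for HK1, HK2, HK3, PFKFB3, LDHA and LDHB and the lowest for PFKM. The coefficient of variation in the HFCF group was 93.7% for PFKFB3, 82.7% for HK3 and 59.5% for HK2, and 7.05% for ALDOA. In the NC group it was between 6.41% for HK1 and 32.6% for HK2.

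The other enzymes of the pathway were read from a list of 19 genes, of which 15 were tested. TPI1, ADPGK and PGAM2 passed the limma test, all as higher, or 20% of the list against 28.9% of all genes, and 7 of the 15 had every HFCF pig above every NC pig, against 36.1% of all genes. Triose phosphate isomerase (TPI1) measured 60.2, 52.3 and 55.5 FPKM in NC pigs and 88.4, 121 and 102 in HFCF pigs, with a wide gap between the groups. Its log2 fold change was 0.88 (SE 0.16, limma adjusted p = 0.0084), and it missed the threshold only with median-ratio scaling, where it was 0.52 with an adjusted p of 0.0611. ADP-dependent glucokinase (ADPGK), which phosphorylates glucose with ADP, rose from 2.25, 2.68 and 2.68 to 5.80, 4.49 and 4.47 FPKM, a log2 fold change of 0.92 (SE 0.20, limma adjusted p = 0.0149, and 0.0532 without NC pig 1). With median-ratio scaling and quantile normalization ADPGK was at 0.57 and 0.45 (adjusted p 0.0576 and 0.106). The muscle-type phosphoglycerate mutase PGAM2 rose from 1.06, 0.928 and 1.84 to 2.46, 4.47 and 2.49 FPKM, a log2 fold change of 1.24 (SE 0.35, limma adjusted p = 0.0383). PGAM2 passed again only without NC pig 3 among the fits that left out 1 library, at 0.0302, and reached 0.121 without NC pig 1 and 0.252 after quantile normalization, where its log2 fold change was 0.63. GAPDH, named after its values were seen as a common reference gene, measured 918, 708 and 629 FPKM in NC pigs and 702, 804 and 921 in HFCF pigs, with full overlap (log2 fold change 0.12, SE 0.21, limma adjusted p = 0.709).

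**Figure D4:**
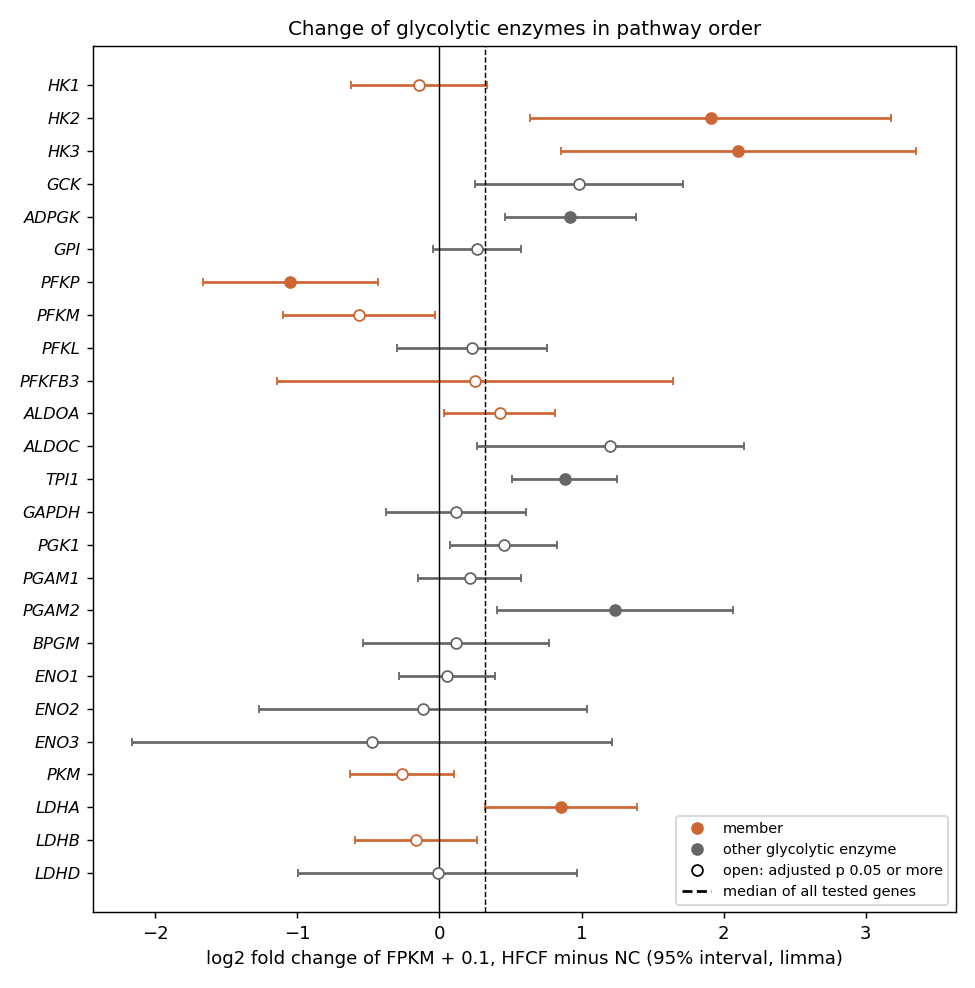
Log2 fold change of FPKM + 0.1, HFCF minus NC, with 95% confidence intervals from limma for the 10 members (orange) and 15 other glycolytic enzymes (grey) in pathway order, filled where the adjusted p was under 0.05. The dashed line is the median of all tested genes at 0.32, and PFKP (-1.05) is the only filled point on the left of 0.

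The pathways that lead into and out of glycolysis were read from lists in the same fit. In that fit 28.9% of all tested genes passed, 22.8% as higher and 6.16% as lower. Of 12 tested genes of pyruvate dehydrogenase and its control, 2 were higher (PDHB, DLAT) and 3 lower (PDK2, PDK3, PC), or 41.7% of the list. Of the 4 pyruvate dehydrogenase kinases, which switch the complex off, PDK2 and PDK3 fell: PDK2 from 28.2, 26.2 and 26.7 FPKM in NC pigs to 10.3, 12.5 and 15.1 in HFCF pigs (log2 fold change -1.11, SE 0.17, limma adjusted p = 0.00524), and PDK3 from 12.6, 14.0 and 16.6 to 1.88, 3.66 and 5.67 (log2 fold change -2.04, SE 0.37, limma adjusted p = 0.00913). Both passed under all 15 alternatives, with log2 fold changes of -0.97 and -1.63 without HFCF pig 1. The other kinases, named after their values were seen, overlapped between the groups. PDK1 had a log2 fold change of -0.14 (SE 0.24, limma adjusted p = 0.688). PDK4 measured 7.56, 3.13 and 3.19 FPKM in NC pigs and 3.49, 27.9 and 10.16 in HFCF pigs, a log2 fold change of 1.22 (SE 0.73, limma adjusted p = 0.245). PDHB, DLAT and PC had adjusted p-values of 0.0441, 0.0387 and 0.0381 and up to 0.129, 0.111 and 0.133 with 1 library left out. PC measured 30.2, 42.1 and 7.38 FPKM in NC pigs and 3.37, 3.32 and 7.10 in HFCF pigs (log2 fold change -2.27, SE 0.65). NC pig 3 and HFCF pig 3 thus nearly met. PDHB and DLAT also missed the threshold under all 3 other scalings, PDHB at a log2 fold change of 0.20 with median-ratio scaling (adjusted p 0.387) and DLAT at 0.25 after quantile normalization (adjusted p 0.338), from 0.55 and 0.70.

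Among 4 tested genes of fructose entry, aldose reductase (AKR1B1), which turns glucose into sorbitol, rose from 26.3, 25.4 and 34.7 FPKM to 116, 88.1 and 86.8, a log2 fold change of 1.75 (SE 0.19, limma adjusted p = 0.00173). Of 12 tested genes of glycogen and gluconeogenesis UGP2 was higher and GYS1 and PYGB were lower. The share called was 25% in both lists, against 28.9% of all tested genes, so these counts are not read as results about the lists. Glycogen synthase 1 (GYS1) fell from 20.5, 21.4 and 25.8 FPKM to 13.2, 12.9 and 12.9, a log2 fold change of -0.78 (SE 0.14, limma adjusted p = 0.00926). AKR1B1 and GYS1 passed under all 15 alternatives, whereas UGP2 and PYGB, at adjusted p-values of 0.0226 and 0.0496, reached 0.0618 and 0.161 with 1 library left out. With median-ratio scaling UGP2 was at 0.49 (adjusted p 0.0909), against 0.85 in the main fit.

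Of 8 tested genes of the pentose phosphate pathway, PGD and RPE passed, as higher. Of 8 tested lactate and pyruvate carriers, SLC16A7 and MPC2 passed, as higher. Of 6 tested glucose transporters SLC2A8 passed, as higher, and SLC2A1 had no row of its name. The shares called were 25%, 25% and 16.7%, against 28.9% of all tested genes, so these counts are not read as results about the lists. With 1 library left out the adjusted p of these 5 genes reached 0.0863, 0.0896, 0.0553, 0.110 and 0.118, in the order named. After quantile normalization the log2 fold change fell from 0.94 to 0.29 for RPE (adjusted p 0.416), from 0.67 to 0.26 for MPC2 (adjusted p 0.359) and from 0.90 to 0.25 for SLC2A8 (adjusted p 0.516), and with median-ratio scaling from 0.67 to 0.31 for PGD (adjusted p 0.182), so these calls did not hold there. SLC16A7 went from 1.55 to 0.98 after quantile normalization (adjusted p 0.0633). It was low, at 0.356, 0.266 and 0.226 FPKM in NC pigs and 1.46, 0.997 and 0.709 in HFCF pigs. Its log2 fold change therefore depended on the constant added, at 0.66 with 1 and 1.82 with 0.01, though the call held in both.

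Of 12 tested regulators of glycolytic genes, EGLN3 and EGLN1 were higher and EPAS1 and MLXIP lower, or 33.3% of the list against 28.9% of all tested genes. EPAS1, the oxygen-sensitive factor HIF-2α, measured 346, 275 and 326 FPKM in NC pigs and 150, 205 and 171 in HFCF pigs (log2 fold change -0.85, SE 0.18, limma adjusted p = 0.0131, and 0.0565 without NC pig 1). MLXIP, a glucose-sensing transcription factor also called MondoA, measured 32.7, 25.3 and 25.7 FPKM in NC pigs and 13.5, 15.1 and 17.0 in HFCF pigs (log2 fold change -0.87, SE 0.17, limma adjusted p = 0.0104) and passed under all 15 alternatives. EGLN3, a prolyl hydroxylase of the same oxygen pathway, had a log2 fold change of 1.37 (SE 0.32, limma adjusted p = 0.0205), with 0.0767 as the highest adjusted p without 1 library, 0.0538 with median-ratio scaling and 0.0963 after quantile normalization. EGLN1 had a log2 fold change of 0.53 (SE 0.16, limma adjusted p = 0.0476), but 0.18 with median-ratio scaling (adjusted p 0.429), and it passed under none of the 3 other scalings and reached 0.134 with 1 library left out.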

How the data were processed

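RNA of the abdominal aorta of 3 NC and 3 HFCF pigs was sequenced, 1 library per pig. The authors prepared mRNA libraries with an Illumina kit and, per the submitters' processing notes and the methods, used cutadapt 1.9, FastQC, HISAT2 and StringTie, and deposited FPKM for 30477 genes. The value 0.0001 was taken to mean 0, which 8661 genes showed in every library. FPKM are not counts, so read depth is known only in relative terms, and the smallest steps between values under 0.3 gave it within 0.015 on the log2 scale. Coordinates are not given, because the gene table used for names is of a later build than that in the methods.

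The log2(FPKM + 0.1) values of the 15384 genes whose mean FPKM reached 0.1 were fitted with limma 3.58.1 (R 4.3.3) in a linear model of diet alone, followed by eBayes with trend and adjustment by Benjamini-Hochberg. The fit was tested on simulated data. Adding 0.1 understates the change of low genes. Ratios between members were tested with exact permutation tests over pigs, adjusted over 5 ratios. All members were named, and of other lists the genes with an adjusted p under 0.05, at most 5 per list, and for each hexokinase the 3 genes of most similar pattern, of which 1 is not reported here. The members and lists were chosen with earlier results of these data known. Of 179 genes searched, 155 were found by name, 13 by gene ID and description, and 11 had no row. The alternatives were 2 other pseudocounts, 2 other filters, 3 other scalings, eBayes without trend, the replicate number as a block and leaving out each library. The deposited comparisons of the study were not used.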

Additional observations from a re-analysis of the deposited data

How the results depend on the processing

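Under 15 alternatives the log2 fold changes of HK2, HK3, LDHA, ALDOA, PFKP, PFKM, PKM and LDHB kept their sign, and those of HK1 (-0.31 to 0.052 with 1 library left out) and PFKFB3 (-0.11 with median-ratio scaling, -0.012 rescaled to TPM, -0.48 to 0.78 with 1 library left out) did not. Median-ratio scaling moved the median log2 fold change of all genes from 0.32 to -0.003, quantile normalization to -0.06 and rescaling to TPM to 0.09. The number of members called was 4 in the main fit, 2 with quantile normalization and between 0 and 3 with 1 library left out. With median-ratio scaling it was also 4, of which 1 was higher (HK3) and 3 lower (PFKP, PFKM, PKM). The number of other glycolytic enzymes called was 3 in the main fit, 0 with median-ratio scaling (3 at an unadjusted p under 0.05), 1 with quantile normalization and between 1 and 4 with 1 library left out. Over all genes 4453 were called in the main fit and between 2399 and 3562 with 1 library left out. The cause of these differences was not tested, but a fit without a library has fewer samples. The log2 difference of the HK3 to HK2 ratio lay between -0.14 and 0.57 with 1 pig left out, and those of the other ratios kept their sign.

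With the replicate number as a block, 2772 genes, 1 member (PFKP) and 1 other glycolytic enzyme (TPI1) were called. The deviations of pigs of the same number had correlations of 0.02, -0.08 and -0.07, and no source says that a number pairs pigs. Whether pigs of the same number were handled together was not tested, and 3 pigs per group are too few to decide it. Groups of 3 pigs limit the precision of all values, and HFCF pig 1 sets much of the spread of HK3 and PFKFB3.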
